A study of Mus musculus with 12 samples.

Results

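Hspa5, Hsp90b1, Xbp1, Dnajb9, Herpud1, Sdf2l1, Pdia4, Pdia6, Edem1 and Calr are chaperones, folding enzymes and degradation factors of the endoplasmic reticulum (ER), with the transcription factor XBP1 among them, and were taken by name from the 21671 genes of the deposited table. All 10 were found there, and all 10 were among the 9745 genes tested. Total RNA was depleted of ribosomal RNA and sequenced from 12 libraries of FL5.12 cells (FL MycER), an IL-3-dependent mouse line labelled prolymphocytic, of BALB/c strain. Every group carried MycER, a MYC fused to the hormone-binding part of the oestrogen receptor, delivered by a retrovirus and expressed constitutively in pools of antibiotic-selected cells rather than in a single clone. MycER is activated by 4-hydroxytamoxifen (OHT). The 4 conditions, with 3 biological replicates each, were cells left without either drug (untreated), cells given 100 nM OHT for 72 h (OHT), cells given 135 nM IACS-010759, an inhibitor of complex I of the electron transport chain (ETC), for 24 h (IACS), and cells primed for 48 h with OHT and then kept for 24 h in OHT with IACS-010759 (OHT_IACS). Per the authors' methods, all cells were passaged in medium with reduced glucose before experiments with IACS-010759. No group without MycER was sequenced, so an effect of OHT itself and of MycER cannot be told apart.

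Proteins that enter the ER are folded by HSPA5 (BiP) with its cochaperones, by the HSP90 paralog HSP90B1, by the lectin chaperone calreticulin, and by protein disulfide isomerases such as PDIA4 and PDIA6. When unfolded proteins accumulate, 3 sensors in the ER membrane respond. IRE1 (Ern1) splices the Xbp1 mRNA, ATF6 is cut in the Golgi into an active factor, and PERK (Eif2ak3) phosphorylates eIF2 alpha, which lets ATF4 be translated. XBP1 and ATF6 raise chaperones and degradation factors, whereas ATF4 is shared with the other kinases of the integrated stress response (ISR) and raises genes of amino acid supply and Ddit3 (CHOP). Plasma cells are known for a high demand on this system. Chaperones and Ddit3 are therefore read here mainly for different branches, though a single gene may answer to several of them. The comparisons below set these groups of genes side by side in cells with an inhibited ETC.

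The promoters of the 10 genes were read from RefSeq windows of 300 bases, 250 of them before the gene's start (GRCm38.p6), in which all 10 genes had an entry. Stretches around ER stress motifs are shown for 4 of the chaperones and for Herpud1, whose values are set side by side below. Whether the motifs relate to these values was not tested. The ER stress element (ERSE), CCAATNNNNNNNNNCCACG on either strand, was found in 4 of the 10 windows (Hspa5, Hsp90b1, Pdia6 and Calr) and in 39 of all 32851 windows (0.119%). Each stretch below is written 5′ to 3′ on the strand that reads CCAAT first, with both parts of the motif in capitals. Hspa5 lies on the plus strand of chr2:34772005-34772063, and its motif starts 65 bases before the gene. Hsp90b1 holds a pair of matches, on the minus strand of chr10:86705618-86705676 and on the plus strand of chr10:86705513-86705571, which start 212 and 107 bases before the gene. Pdia6 lies on the plus strand of chr12:17266471-17266529, with the motif starting 98 bases before the gene, and Calr on the plus strand of chr8:84847055-84847113, with the motif 162 bases before a gene that is read from the minus strand.
Hspa5: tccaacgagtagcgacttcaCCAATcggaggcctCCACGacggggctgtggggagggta
Hsp90b1, distal: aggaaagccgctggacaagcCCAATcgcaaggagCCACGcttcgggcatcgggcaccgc
Hsp90b1, proximal: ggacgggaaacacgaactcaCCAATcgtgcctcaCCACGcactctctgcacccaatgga
Pdia6: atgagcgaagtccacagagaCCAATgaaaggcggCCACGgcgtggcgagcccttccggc
Calr: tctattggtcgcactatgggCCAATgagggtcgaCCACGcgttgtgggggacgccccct

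Herpud1 held no ERSE but was the only one of the 10 with the related ERSE-II, ATTGGNCCACG, found in 12 of all windows (0.0365%), and the only one with TGATGNAA, a composite element known to bind ATF4, found in 1304 windows (3.97%). The stretch is on the plus strand at chr8:94386305-94386399, with both matches in capitals. The first is TGATGNAA on the opposite strand, starting 112 bases before the gene, and the second is the ERSE-II, starting 52 bases before it.
Herpud1: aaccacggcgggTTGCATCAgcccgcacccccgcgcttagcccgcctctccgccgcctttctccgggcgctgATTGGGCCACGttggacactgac
The core of the XBP1 element, ACGTGG, was found in 3 windows (Dnajb9, Herpud1 and Pdia6) and in 8.31% of all windows, and its match in Herpud1 overlaps the ERSE-II shown above. The windows of Xbp1, Sdf2l1, Pdia4 and Edem1 held none of the 4 motifs. These are matches of letters in short windows, not measured binding sites.

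Values are RPKM as deposited by the authors, that is, the reads on a gene scaled to its length and to the size of the library. Library totals ran from 10376530 to 14550158 reads and reads on genes from 4199266 to 5762340. Larger libraries did not hold proportionally more reads of abundant genes. Fitted within conditions, the slope of log2 reads on the log2 total had a median of 1.39 over 4354 genes with under 0.1 reads per base, but of 0.18 over 84 genes with more than 1, and the highest value of any gene was 1.59 to 1.80 reads per base in every library. OHT replicates 1 and 3 had the smallest totals, at 0.776 and 0.805 of that of untreated replicate 1. IACS replicate 3 followed at 0.832, so that RPKM of abundant genes are raised in these 3 libraries relative to rarer genes. The OHT_IACS libraries were at 0.882 to 0.891 and the untreated ones at 1 to 1.09, so library size also differed between these conditions. What stops the reads of abundant genes from growing was not tested. The labelled lymphoid type was also set against marker genes. Of 11 markers of B-lineage precursors, 8 stayed under 1 RPKM in every library. Among these, Pax5, Il7r, Rag1 and Vpreb2 were at 0 in all 12 libraries. The remaining markers were above 0 in every library. Ptprc was at 15.0 to 19.3 RPKM, while Cd79b (median 2.21, at most 3.64) and Cd79a (median 1.07, at most 1.59) were low. The erythroid Gata1 (26.0 to 32.9) was present. Of 7 myeloid markers, 2 stayed under 1 RPKM in every library, among them Csf1r (at most 0.107), while Mpo (8.65 to 13.7), Prtn3 (8.74 to 21.6) and Ctsg (4.00 to 15.3) were present. The myeloid markers summed to 44.6 to 47.1 RPKM in untreated cells and 39.3 to 49.0 with IACS, but to 23.2 to 27.9 with OHT and 24.8 to 25.5 with OHT_IACS, so that all 6 libraries with OHT were below all 6 without it. The B-lineage markers, for the most part Ptprc, summed to 21.3 to 21.4 and 21.7 to 24.0 without OHT, against 18.3 to 19.9 with OHT and 17.1 to 19.3 with OHT_IACS. The part of these shifts in the differences with OHT given below was not tested. The 5 plasma cell markers summed to at most 0.722 RPKM in any library.

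In untreated cells the 10 genes ranged from 89.2 ± 2.27 RPKM for Calr to 5.16 ± 0.161 RPKM for Dnajb9, the HSPA5 cochaperone ERdj4 (mean ± SD, n = 3). Calr ranked 30th and Hspa5, at 81.9 ± 1.70, ranked 48th of all 21671 genes. Below them came Xbp1 (51.5 ± 1.21), Hsp90b1 (48.8 ± 1.24), Sdf2l1 (43.3 ± 1.90), Pdia6 (31.7 ± 0.863), Pdia4 (29.4 ± 0.274), Herpud1 (20.6 ± 0.127) and Edem1 (10.7 ± 0.529). No neighbours in this order overlapped in untreated cells. With OHT, the ranges of Calr and Hspa5 overlapped, and so did those of Sdf2l1 and Xbp1, as Xbp1 moved from the third to the fifth place. With IACS, those of Pdia4 and Pdia6 overlapped. Since Calr and Hspa5 held a median of 1.18 and 1.06 reads per base, near the highest of any gene, their place relative to the rarer members is less certain than that of the others.

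**Figure D1:**
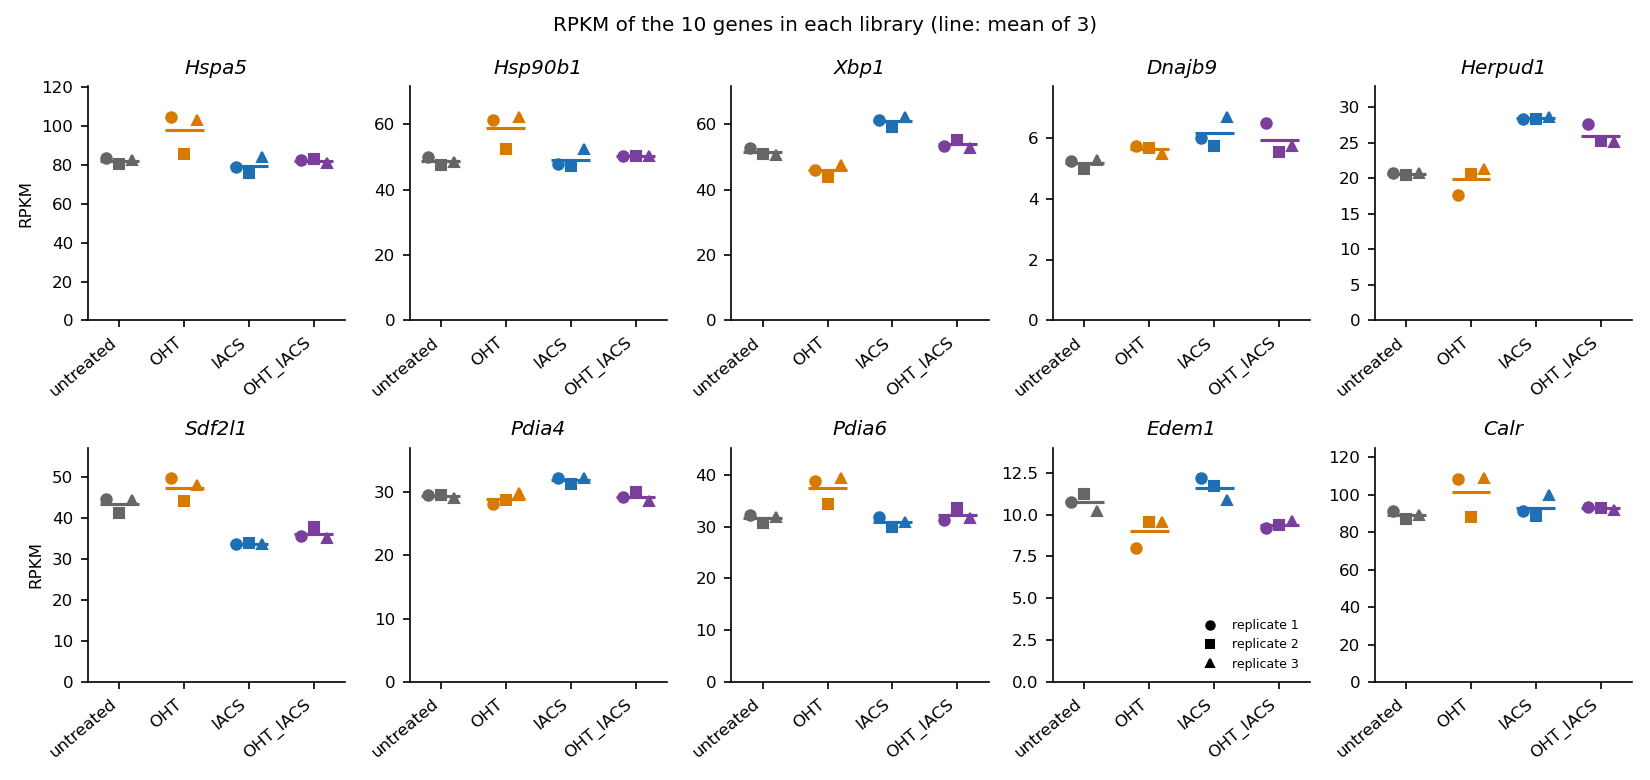
RPKM of each of the 10 genes (vertical axis, from 0) in the 12 libraries, grouped by condition, with a marker shape for each replicate number and a line at the mean of 3. Herpud1 and Sdf2l1 separate the 6 libraries with IACS-010759 from the 6 without it, in opposite directions, while Hspa5, Hsp90b1 and Calr stand out in OHT replicates 1 and 3.

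IACS-010759 on its own moved 3 of the 10 genes, in both directions. Herpud1, a membrane protein of the complex for ER-associated degradation, rose by 0.43 on the log2 scale, Xbp1 rose by 0.22, and Sdf2l1, a cochaperone of the HSPA5 complex, fell by 0.39. The HSP70 and HSP90 chaperones of the ER and calreticulin were not among the genes called. Among all genes tested, 15.9% were called in this comparison (limma, Benjamini-Hochberg adjusted p under 0.05), 8.15% as higher and 7.74% as lower. In whole cultures, a change in the RNA of each cell and a change in which cells are present cannot be told apart.

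Herpud1 stood at 20.7, 20.5 and 20.7 RPKM in the untreated libraries and at 28.4, 28.4 and 28.7 with IACS. The groups did not overlap, and the lowest IACS library was above every untreated one. The rise was 35.1% (log2 difference 0.43, SE 0.0578, limma adjusted p = 0.000285). In primed cells it went from 17.6, 20.6 and 21.3 with OHT to 27.6, 25.2 and 25.2 with OHT_IACS. All 3 OHT_IACS libraries were again above all 3 OHT libraries, by 31.2% (log2 difference 0.39, SE 0.0578, limma adjusted p = 0.000463). Over the alternative settings the adjusted p of Herpud1 ran from 1.32e-05 to 0.00212 in unprimed and from 0.000101 to 0.00561 in primed cells. Its reads ran from 342 to 729 per library, at a median of 0.297 reads per base, where read numbers followed the library total (slope 1.18).

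Sdf2l1 went the other way. It stood at 44.5, 41.1 and 44.3 RPKM in untreated cells and at 33.6, 33.9 and 33.6 with IACS. In primed cells it stood at 49.7, 44.1 and 47.9 with OHT and at 35.5, 37.8 and 35.1 with OHT_IACS. All 6 libraries with IACS-010759 were below all 6 without it. It fell by 23.6% in unprimed cells (log2 difference -0.39, SE 0.0605, limma adjusted p = 0.000912) and fell by 23.4% in primed cells (log2 difference -0.38, SE 0.0605, limma adjusted p = 0.000714). OHT alone gave 0.10 (limma adjusted p = 0.203), which was called without OHT replicate 2 (0.16, adjusted p = 0.0252). The response of Sdf2l1 to IACS-010759 was called under every alternative setting run, with an adjusted p of at most 0.00682 in unprimed and 0.00852 in primed cells.

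Xbp1, the factor that gives this branch its name, moved with both treatments. Its RPKM were 52.9, 51.0 and 50.6 in untreated cells and 61.4, 59.1 and 62.4 with IACS. With OHT they were 46.2, 44.0 and 47.6, and with OHT_IACS 53.4, 55.3 and 53.0. OHT_IACS thus lay above OHT and below IACS, and no groups compared overlapped. IACS-010759 raised Xbp1 by 16.1% without priming (log2 difference 0.22, SE 0.0563, limma adjusted p = 0.0198) and by 17.4% with it (log2 difference 0.23, limma adjusted p = 0.0105). OHT lowered it by 0.19 on the log2 scale without IACS-010759 (limma adjusted p = 0.0192) and by 0.17 with it (limma adjusted p = 0.0373). The call in unprimed cells was lost when untreated replicate 2 (adjusted p = 0.0667), untreated replicate 3 (0.0798), IACS replicate 1 (0.0536) or IACS replicate 3 (0.0768) was left out, with differences of 0.18 to 0.22, while that in primed cells was kept each time. The OHT call was lost without untreated replicate 1 (-0.16, adjusted p = 0.0765) and without untreated replicate 2 (-0.19, adjusted p = 0.0510), and in a fit of only the groups compared (adjusted p = 0.0670). The difference of OHT_IACS from IACS was no longer called without IACS replicate 1 (-0.18, adjusted p = 0.0858), IACS replicate 3 (-0.13, 0.118) or OHT_IACS replicate 1 (-0.17, 0.0993), 2 (-0.18, 0.0785) or 3 (-0.17, 0.103). RPKM per gene do not separate the spliced from the unspliced Xbp1 mRNA, so the activity of IRE1 on it was not measured here.

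Hspa5, the HSP70 chaperone that binds and restrains the 3 sensors, is the gene most often read as a marker of ER stress. Its RPKM were 83.5, 80.1 and 82.2 in untreated cells and 78.8, 75.8 and 84.2 with IACS. These ranges overlapped, and the log2 difference was -0.07 (SE 0.0885, limma adjusted p = 0.632), with an interval of 2 SE from -0.25 to 0.11. The upper end of this interval is below the rise of Herpud1. However, reads on Hspa5 grew less with the library total (slope 0.38) than those on Herpud1 (1.18). Whether this leveling also shrinks differences between conditions was not tested, so these sizes are not directly comparable. With OHT the values of Hspa5 were 104.7, 85.3 and 102.9, and with OHT_IACS 82.7, 82.9 and 80.9. OHT replicates 1 and 3 were high, while OHT replicate 2, with the largest total of the 3, was only just above the untreated libraries. Reads on Hspa5 did not show this spread: they numbered 2843, 3113 and 2900 in the OHT libraries, against 2922, 3050 and 3071 in the untreated ones.

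**Figure D2:**
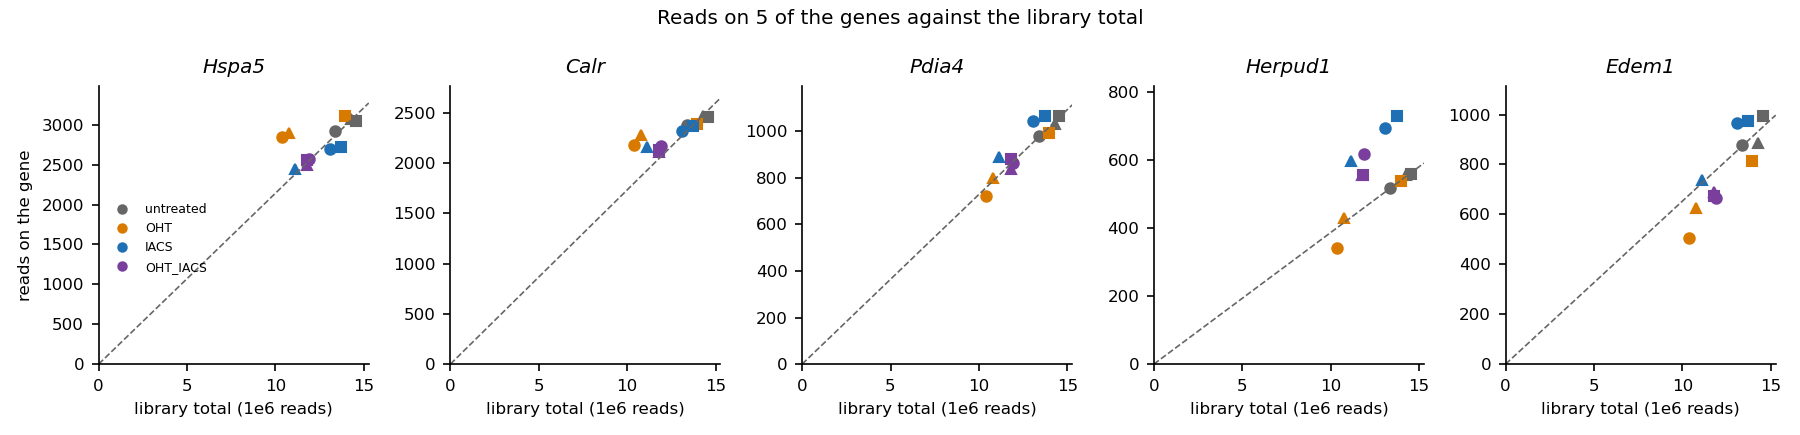
Reads on Hspa5, Calr, Pdia4, Herpud1 and Edem1 (vertical axis) against the library total (horizontal axis, in reads), coloured by condition and with a marker shape for each replicate number. The dashed line is proportional to the total at the untreated level, and the smallest OHT libraries lie above it for Hspa5 and Calr and below it for Edem1.

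For Hspa5 the size of the library therefore had to be set beside each difference. The log2 difference was 0.22 for OHT (limma adjusted p = 0.0626) and -0.24 for OHT_IACS against OHT (adjusted p = 0.0624), and both were called on RPKM as deposited (limma adjusted p = 0.0160 and 0.0290) and with limma voom (adjusted p = 0.0132 and 0.0128). With the library total (log2) as a covariate, the OHT difference was 0.01 (limma adjusted p = 0.752), the IACS difference was -0.19 (adjusted p = 0.000295) and that in primed cells was -0.22 (adjusted p = 3.03e-05). Quantile normalization (-0.17, limma adjusted p = 0.000111) and cyclic loess normalization (-0.15, adjusted p = 0.000225) also called a fall with IACS, whereas RPKM as deposited and limma voom did not. In primed cells quantile normalization gave -0.22 (limma adjusted p = 1.01e-05). Without OHT replicate 2 the OHT difference was 0.33 (limma adjusted p = 0.00119) and that in primed cells -0.35 (adjusted p = 0.00177). Hspa5 was not higher with IACS-010759 under any of the settings run, primed or unprimed.

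Hsp90b1 and Calr, likewise abundant, followed the same libraries. The limit on sizes given for Hspa5 holds for both (slopes 0.44 and 0.32). Hsp90b1 stood at 50.1, 47.7 and 48.5 RPKM in untreated cells, at 61.3, 52.6 and 62.4 with OHT, at 47.7, 47.3 and 52.6 with IACS and at 50.4, 50.4 and 50.5 with OHT_IACS. Calr stood at 91.6, 87.1 and 89.0 in untreated cells, at 108.3, 88.0 and 109.0 with OHT, at 91.3, 88.7 and 99.7 with IACS and at 93.7, 92.8 and 92.0 with OHT_IACS. In both genes OHT replicates 1 and 3 were the highest of the 12 libraries, and IACS replicate 3 was the highest of its group. IACS-010759 on its own gave a log2 difference of -0.02 for Hsp90b1 (limma adjusted p = 0.908, interval -0.17 to 0.14) and 0.03 for Calr (adjusted p = 0.842, interval -0.15 to 0.22). The difference of Hsp90b1 with OHT was 0.24 (limma adjusted p = 0.0261). It lost its call with the library total as a covariate (0.05, adjusted p = 0.268), without untreated replicate 2 (0.23, 0.0801) or 3 (0.23, 0.0773) without OHT replicate 1 (0.19, 0.0908) or 3 (0.21, 0.0987), and in a fit of only the groups compared (0.0634). In primed cells given IACS-010759 the difference of Hsp90b1 was -0.22 (limma adjusted p = 0.0598). It was called with the library total as a covariate (-0.19, adjusted p = 0.000191), with quantile normalization (-0.17, 0.00176), on RPKM as deposited (-0.22, 0.0314), with limma voom (-0.22, 0.0191) and without OHT replicate 2 (-0.30, 0.00401). That of Calr was -0.12 (limma adjusted p = 0.361), and it was called with the covariate (-0.10, adjusted p = 0.00270), with quantile normalization (-0.09, 0.00895) and without OHT replicate 2 (-0.24, 0.0161). Calr with OHT (0.16, limma adjusted p = 0.197) was called without OHT replicate 2 (0.27, adjusted p = 0.00499). With the library total as a covariate, IACS gave -0.13 for Hsp90b1 (adjusted p = 0.00837) and -0.10 for Calr (adjusted p = 0.0106), so neither was called higher with IACS-010759 in any setting, and the direction of Calr turned.

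The disulfide isomerases differed from each other. Pdia4 changed little across the conditions, at 29.5, 29.5 and 29.0 RPKM in untreated cells, 28.1, 28.7 and 29.9 with OHT, 32.2, 31.2 and 32.2 with IACS and 29.2, 30.0 and 28.6 with OHT_IACS. The 3 IACS libraries were the highest of the 12, but the log2 difference of 0.09 was not called (limma adjusted p = 0.178, interval 0.0037 to 0.17). Pdia4 with OHT was at -0.05 (limma adjusted p = 0.405) and was called with quantile normalization (-0.11, adjusted p = 0.0186). Between IACS and OHT_IACS its groups did not overlap, at -0.11 (limma adjusted p = 0.0627). This difference was called with the library total as a covariate (-0.13, adjusted p = 0.00884) and with cyclic loess normalization (-0.13, adjusted p = 0.0156). Pdia6 stood at 32.3, 30.7 and 32.0 in untreated cells, 38.9, 34.4 and 39.4 with OHT, 31.8, 30.0 and 30.9 with IACS and 31.3, 33.7 and 31.7 with OHT_IACS. Again OHT replicates 1 and 3 stood highest. Its rise with OHT (0.22, limma adjusted p = 0.0128) and its fall in primed cells given IACS-010759 (-0.22, adjusted p = 0.0207) were called. For this and every other gene, both comparisons share the 3 OHT libraries with opposite sign, so they are not independent. The rise was lost with the library total as a covariate (0.09, adjusted p = 0.166), without untreated replicate 2 (0.20, 0.0523) and without OHT replicate 3 (0.20, 0.0539). The fall was kept with that covariate (-0.20, limma adjusted p = 0.00116) and lost without OHT replicate 1 (-0.17, adjusted p = 0.0774) or 3 (-0.19, 0.0765) without OHT_IACS replicate 1 (-0.20, 0.0683) or 3 (-0.21, 0.0620), and in a fit of only the groups compared (0.0685). IACS on its own gave -0.06 (limma adjusted p = 0.526), which was called with the covariate (-0.14, adjusted p = 0.0244).

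Dnajb9 and Edem1 are classical targets of XBP1. Dnajb9 had the fewest reads, 110 to 147 per library. It stood at 5.25, 4.97 and 5.26 RPKM in untreated cells, 5.74, 5.65 and 5.48 with OHT, 5.99, 5.74 and 6.69 with IACS and 6.48, 5.54 and 5.73 with OHT_IACS. The 3 IACS libraries lay above the 3 untreated ones, yet the log2 difference of 0.22 was not called (SE 0.0829, limma adjusted p = 0.0948), nor under any alternative setting (adjusted p of 0.0506 or more). Edem1, which marks out misfolded glycoproteins for degradation, followed OHT rather than IACS-010759. Its RPKM were 10.8, 11.3 and 10.2 in untreated cells and 12.2, 11.7 and 10.9 with IACS, against 8.02, 9.59 and 9.53 with OHT and 9.19, 9.37 and 9.64 with OHT_IACS. Each of the 6 libraries with OHT was below each of the 6 without it. Edem1 fell by 0.27 with OHT (limma adjusted p = 0.00363) and by 0.29 between IACS and OHT_IACS (adjusted p = 0.00309). With the library total as a covariate the first was -0.20 (adjusted p = 0.0738) and the second -0.27 (adjusted p = 0.00616).

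**Figure D3:**
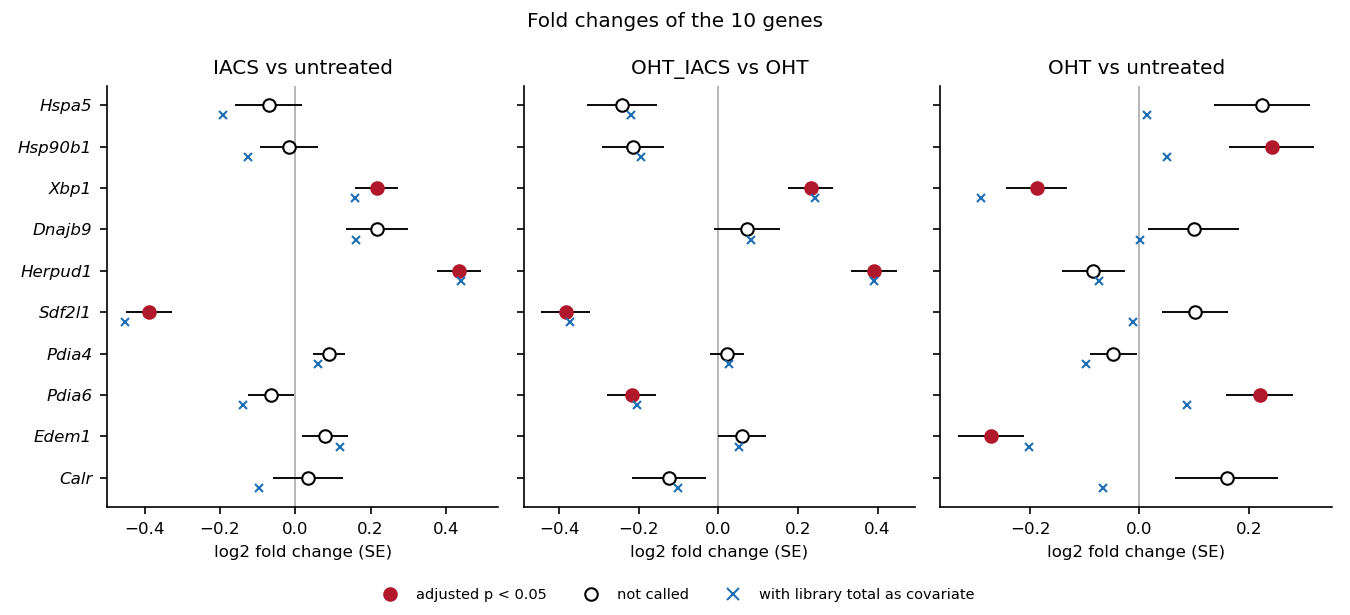
Log2 fold changes of the 10 genes with their standard errors (horizontal axis) for IACS against untreated, OHT_IACS against OHT and OHT against untreated. Filled points have an adjusted p under 0.05 and crosses are the values with library total (log2) as a covariate. Herpud1 and Xbp1 lie to the right and Sdf2l1 to the left of 0 in both responses to IACS-010759, and the crosses of Hspa5, Hsp90b1 and Calr lie left of their points after OHT.

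In primed cells, IACS-010759 moved 4 of the 10 genes. Herpud1 and Xbp1 rose, Sdf2l1 and Pdia6 fell, and 23.7% of all genes were called in this comparison (11.9% higher, 11.8% lower). OHT alone also moved 4 of 10 (Hsp90b1 and Pdia6 higher, Xbp1 and Edem1 lower), beside 36.4% of all genes (18.2% higher, 18.2% lower), a share that 4 of 10 does not stand out from. The median log2 difference of the 10 genes was 0.06 for IACS and -0.05 for OHT_IACS against OHT, beside 0.00 and -0.01 over all genes. Comparing the drugged cells with and without OHT, 2 of 10 were called, Xbp1 and Edem1, both lower with OHT, beside 26.5% of all genes (12.3% higher, 14.2% lower).

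To ask whether priming altered the response to IACS-010759, the difference between both responses was tested as an interaction. None of the 10 genes was called (limma, 0 of 10 also at an unadjusted p under 0.05, and 0 of 10 with limma voom), beside 0.144% of all genes. The interaction was -0.04 for Herpud1 (interval -0.21 to 0.12), 0.00 for Sdf2l1 (interval -0.17 to 0.17) and 0.02 for Xbp1 (interval -0.14 to 0.18). For these 3 genes a difference between the responses of more than 0.21 on the log2 scale thus lay outside the interval of 2 SE. For Hspa5 it was -0.17, with a wider interval of -0.42 to 0.08.

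Within a library, the ratio of a pair of genes does not depend on the scaling of that library. Xbp1 and Herpud1 were set against Sdf2l1 in this way, a choice made after their values were seen, so no test is given. Leveling of reads differs between genes and does not cancel (slopes 1.18 for Herpud1, 0.77 for Xbp1 and 0.73 for Sdf2l1). With OHT, the ratio of Herpud1 to Sdf2l1 was 0.355 in replicate 1, the smallest library, and 0.467 in replicate 2, the largest of the group. The ratio of Xbp1 to Sdf2l1 RPKM was 1.19, 1.24 and 1.14 in untreated cells and 1.83, 1.75 and 1.86 with IACS. It was 0.930, 0.997 and 0.992 with OHT and 1.51, 1.46 and 1.51 with OHT_IACS. The 4 conditions did not overlap in this ratio. That of Herpud1 to Sdf2l1 was 0.477 ± 0.0186 in untreated cells, 0.422 ± 0.0594 with OHT, 0.845 ± 0.00685 with IACS and 0.721 ± 0.0566 with OHT_IACS (mean ± SD, n = 3). Over the 12 libraries the scaled log2 RPKM of Herpud1 and Sdf2l1 had a Pearson r of -0.957, and those of Hspa5 and Hsp90b1 one of 0.980, given as descriptions since the libraries share the conditions and, for the second pair, the effect of library size.

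**Figure D4:**
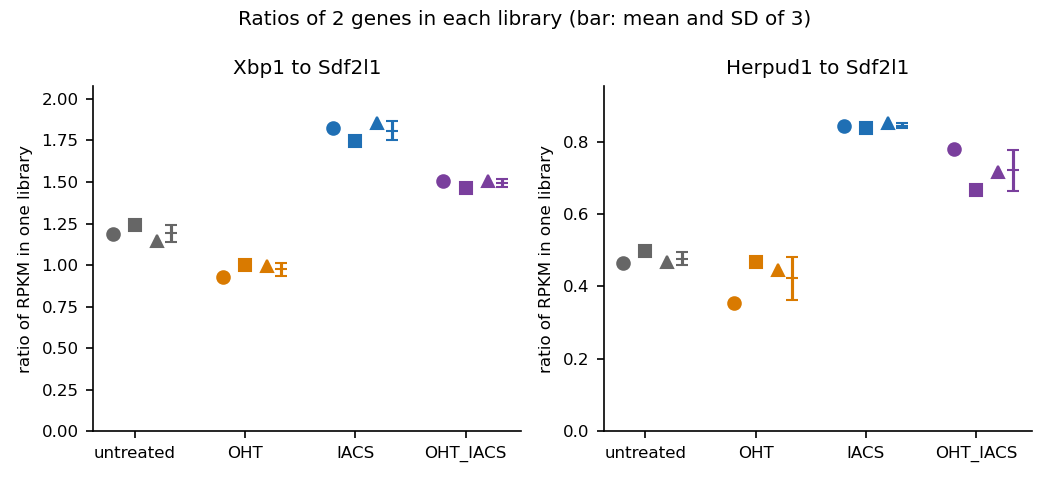
Ratio of Xbp1 to Sdf2l1 and of Herpud1 to Sdf2l1 RPKM within each library (vertical axis, from 0), by condition, with the mean and SD of 3 beside the points and a marker shape for each replicate number. In both panels the 6 libraries with IACS-010759 lie above the 6 without it.

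The sensors upstream of these genes were measured next. Ern1 (IRE1) stood at 2.54, 2.68 and 3.07 RPKM in untreated cells and 4.09, 4.14 and 3.92 with IACS, and rose by 0.51 (limma adjusted p = 0.0107). In primed cells it rose by 0.44 (adjusted p = 0.0169), a call lost without OHT replicate 1 (0.31, adjusted p = 0.0633) or OHT_IACS replicate 1 (0.37, 0.0686). Atf6 stood at 9.05, 9.35 and 9.01 in untreated cells and 13.1, 12.7 and 11.5 with IACS, and rose by 0.41 (limma adjusted p = 0.000133) and, in primed cells, by 0.31 (adjusted p = 0.000829). Neither sensor's groups overlapped. Eif2ak3 (PERK) gave -0.17 (limma adjusted p = 0.309) and, in primed cells, -0.27 (adjusted p = 0.0874). In primed cells its groups did not overlap, and over the alternative settings its limma adjusted p ran from 0.0258 to 0.277. With cyclic loess normalization this fall was called (-0.33, limma adjusted p = 0.0292). Atf6b rose with OHT (0.29, limma adjusted p = 0.00175), and the proteases that cut ATF6, Mbtps1 and Mbtps2, were at -0.05 and 0.04 with IACS (adjusted p = 0.422 and 0.810). Of the 10 genes tested on the list of sensors, proteases and factors, 3 rose and none fell in either response to IACS-010759, the third being Nfe2l1 (0.49, limma adjusted p = 5.06e-05, and 0.51 in primed cells, adjusted p = 2.65e-05), an ER-anchored factor best known for proteasome genes. With OHT alone, 2 of this list rose, Atf6b and the RNA ligase Rtcb (0.33, limma adjusted p = 0.00308), and Creb3 fell (-0.35, adjusted p = 0.0101, and 0.0508 without OHT replicate 3). With the library total as a covariate Rtcb was at 0.17 (limma adjusted p = 0.0200) and Creb3 was not called (-0.27, adjusted p = 0.131).

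Among 22 other ER chaperones and cochaperones tested, 1 rose and 2 fell with IACS, and 1 rose and 6 fell in primed cells. Beside the counts of this and the other lists, 8.15% of all genes were called higher and 7.74% lower with IACS. These shares were 11.9% and 11.8% in primed cells, and 18.2% and 18.2% with OHT. The one of the 22 that rose in both responses was Sil1, the nucleotide exchange factor of HSPA5 (0.49, limma adjusted p = 0.00837, and 0.66, adjusted p = 0.000935). Creld2, an ER stress-induced protein, stood at 17.3 to 17.9 RPKM in untreated cells and 13.2 to 16.0 with IACS, and fell by 0.27 (limma adjusted p = 0.0113). In primed cells it went from between 18.7 and 19.1 to between 12.2 and 14.2 and fell by 0.55 (adjusted p = 6.33e-05). The others that fell in primed cells were Dnajc3, Dnajb11, Dnajc10, Hyou1 and Manf, by 0.27, 0.22, 0.13, 0.18 and 0.19. Dnajc10, Hyou1 and Manf were named after their values were seen, to complete this count. Dnajc3 also fell with IACS alone (-0.21, limma adjusted p = 0.0201), but not without untreated replicate 1 (-0.21, adjusted p = 0.0639) or 2 (-0.18, 0.0859) or IACS replicate 2 (-0.19, 0.0660) or 3 (-0.19, 0.0682), nor with the library total as a covariate (-0.18, 0.0591). Median log2 differences of this list were 0.02 and -0.05. OHT on its own raised 3, among them Hspa13 (0.32, limma adjusted p = 0.00124) and Mogs (0.21, adjusted p = 0.0309), and lowered 2, Fkbp2 (-0.26, adjusted p = 0.0187) and Dnajc3 (-0.18, adjusted p = 0.0201). With the library total as a covariate, Mogs, Fkbp2 and Dnajc3 were not called in this comparison (adjusted p = 0.234, 0.132 and 0.197), and Hspa13 was at 0.20 (adjusted p = 0.0199).

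Of 15 other ER oxidoreductases, 2 rose with IACS and none fell, whereas in primed cells none rose and 2 fell, the membrane thioredoxins Tmx1 (-0.31, limma adjusted p = 0.00310) and Tmx2 (-0.12, adjusted p = 0.0475). Tmx2 was not called with limma voom (-0.12, adjusted p = 0.0894) or cyclic loess normalization (-0.07, adjusted p = 0.239). Ero1l, the oxidase that recharges the isomerases, rose from 20.8 to 21.0 RPKM in untreated cells to 26.7 to 28.6 with IACS (0.37, limma adjusted p = 0.000301). It was higher still with OHT, at 30.8 to 33.5 (0.58, adjusted p = 2.13e-06). Pdia5 rose with IACS (0.55, limma adjusted p = 0.0170, or 0.44 and 0.0754 without untreated replicate 1) and with OHT (1.22, adjusted p = 1.94e-05). Both genes were thus also higher in cells with OHT and no inhibitor. OHT lowered Tmx4 (-0.43, limma adjusted p = 0.000343) and Txndc11 (-0.25, adjusted p = 0.0236), of which Txndc11 was not called with the library total as a covariate (adjusted p = 0.0927).

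ER-associated degradation, to which Herpud1 and Edem1 belong, had 24 other genes tested, of which 1 rose and 1 fell with IACS and 2 rose and 3 fell in primed cells. Os9, a lectin that hands over misfolded glycoproteins, rose by 0.18 in primed cells (limma adjusted p = 0.0334). Selk fell by 0.24 (limma adjusted p = 0.0219) and 0.37 (adjusted p = 0.00140), and Ufd1l, a partner of the p97 ATPase, fell by 0.42 in primed cells (adjusted p = 0.00113). Calls of Os9 and, with IACS alone, of Selk ended when single libraries were left out. The adjusted p then reached, for Os9, 0.126 (without OHT replicate 1) and for Selk 0.0941 (without untreated replicate 3). With limma voom that of Selk was 0.0517. OHT alone raised 3 of this list and lowered 1, with values of 0.30 for Edem3 (limma adjusted p = 0.00246), 0.20 for Ufd1l (adjusted p = 0.0403, and 0.114 without untreated replicate 1) and -0.25 for Faf2 (adjusted p = 0.00437, and 0.0765 with the library total as a covariate). The median of the list was 0.01 in both responses to the inhibitor. Of 24 genes of translocation, signal peptide cleavage and N-glycosylation, 1 rose (Krtcap2, of the oligosaccharyltransferase, 0.25, limma adjusted p = 0.0474, and 0.150 without IACS replicate 1) and 1 fell (Srpr, the receptor of the signal recognition particle, -0.23, adjusted p = 0.00747) with IACS. In primed cells 3 of them fell, among them the signal peptidase subunit Spcs3 (-0.19, limma adjusted p = 0.0155) and Ssr1 (-0.15, adjusted p = 0.0210, and 0.0858 with cyclic loess normalization). With OHT only Ostc was called (0.20, limma adjusted p = 0.0494), and its difference was 0.02 (adjusted p = 0.706) with the library total as a covariate and 0.08 (adjusted p = 0.0491) with cyclic loess normalization.

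The PERK and ATF4 arm moved far more than the chaperones, but the leveling of reads limits this comparison. Reads on Trib3, Atf5 and Ddit3 grew more than the library total (slopes 1.87, 2.19 and 1.53). Those on Hspa5, Calr, Hsp90b1 and Atf4 grew less (slopes 0.38, 0.32, 0.44 and 0.39). The part of this in the contrast was not tested. Like the other lists, this one was chosen with earlier results of these data known, so its counts are a description. Of the 12 genes of this arm tested, 9 rose and none fell with IACS, and 10 rose and none fell in primed cells. Their median log2 differences were 0.58 and 0.43. Trib3, an inhibitor of AKT and of ATF4 itself, stood at 5.21 to 6.11 RPKM in untreated cells and 22.0 to 23.6 with IACS (1.96, limma adjusted p = 7.79e-08), and at 8.03 to 11.8 with OHT and 26.3 to 28.0 with OHT_IACS (1.54, adjusted p = 5.65e-07). Atf5, a factor linked to mitochondrial stress, rose by 1.75 (limma adjusted p = 2.05e-06) and 1.98 (adjusted p = 5.02e-07). Ddit3 went from 7.24 to 7.58 RPKM in untreated cells to 16.8 to 17.7 with IACS (1.17, limma adjusted p = 1.23e-07), and in primed cells from 7.97 to 10.2 to 14.6 to 15.6 (0.76, adjusted p = 5.67e-06). The mRNA of Atf4, which is controlled mainly in translation, was at 65.7 to 68.3 RPKM in untreated cells and 77.0 to 87.0 with IACS without being called (0.24, limma adjusted p = 0.0743). It was called with limma voom (0.24, adjusted p = 0.0148), with the library total as a covariate (0.12, adjusted p = 0.00295) and with cyclic loess normalization (0.17, adjusted p = 0.000407). In primed cells Atf4 was at 0.13 (limma adjusted p = 0.289) and was not called with limma voom (0.13, adjusted p = 0.172). There it was called with the covariate (0.15, limma adjusted p = 0.000232) and with cyclic loess normalization (0.17, adjusted p = 0.000274). OHT alone raised 6 of this arm and lowered 1, Atf5 (-0.40, limma adjusted p = 0.0288, and 0.118 without OHT replicate 1). This fall of Atf5 was not called with the library total as a covariate (-0.12, limma adjusted p = 0.518) or with limma voom (-0.38, adjusted p = 0.0698). Ddit4, an inhibitor of mTORC1, rose with IACS (0.73, limma adjusted p = 0.000259) and with OHT (0.67, adjusted p = 0.000131). The other 95 genes tested on the pathway lists had a median of 0.03 with IACS, with 8 higher and 4 lower, and of -0.02 in primed cells, with 6 higher and 14 lower. Set against the 8.15% and 7.74% of all genes called higher and lower with IACS, the counts of these 95 genes are near or under the share of the table. In primed cells, where 11.9% and 11.8% of all genes were called higher and lower, the 6 higher are under that share and the 14 lower are over it.

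**Figure D5:**
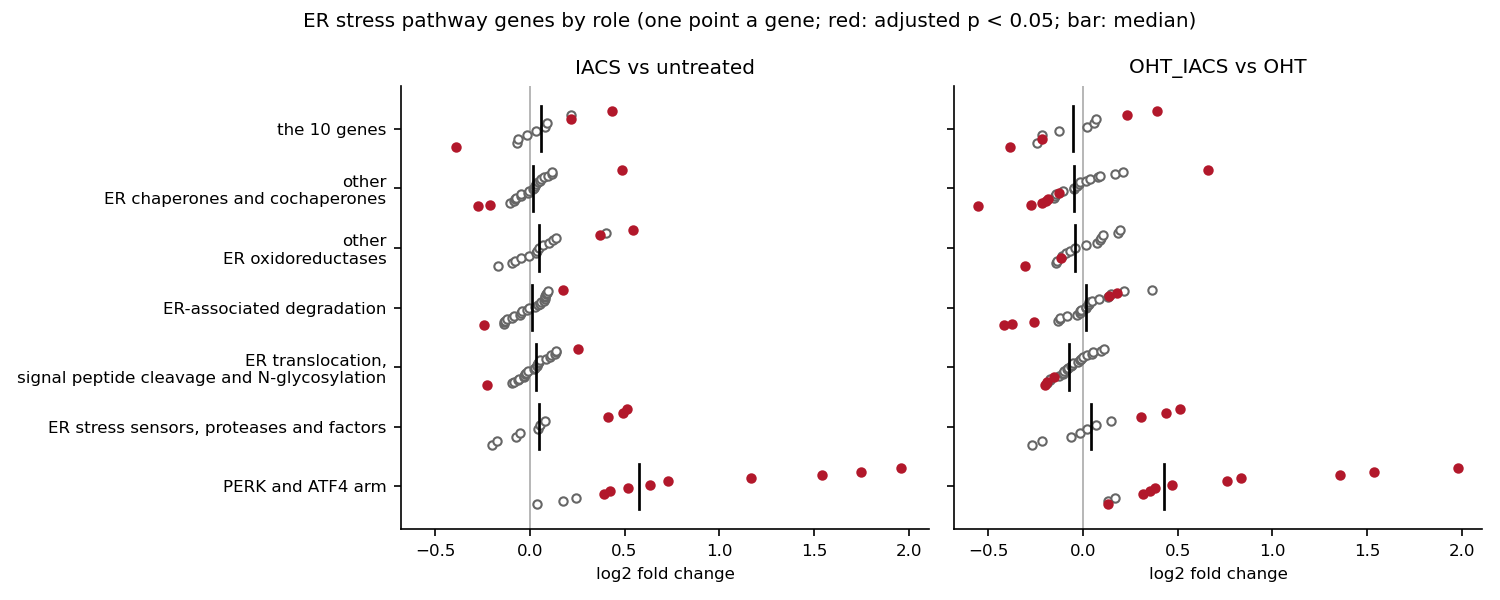
Log2 fold changes (horizontal axis) of the genes tested in each list of the ER stress pathway, for IACS against untreated and OHT_IACS against OHT, with a point for each gene, filled where the adjusted p is under 0.05, and a bar at the median of the list. The PERK and ATF4 arm lies to the right, up to 1.96 and 1.98, while the medians of the other lists lie between -0.07 and 0.06.

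The genes whose scaled log2 RPKM were most like those of Hspa5 over the 12 libraries were Ccz1 (Pearson r = 0.981), Hsp90b1 (0.980) and Ube2n (0.975). Hsp90b1 was the only one of the 10 genes so placed. Herpud1 was most like Rhbdd1 (0.973), Anxa4 (0.970) and Ogt (0.968), and Xbp1 was most like Vasp (0.976), Parvg (0.971) and Maml3 (0.960). With 4 conditions behind 12 libraries, many genes reach such values, and they are given as a description only.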

How the data were processed

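RNA-seq libraries were made from 12 samples, 3 for each of 4 conditions, grouped by the sample labels. The authors deposited RPKM per gene and library, together with their own log2 fold changes and adjusted p-values (DESeq2), which were not used. Per the labels, the processing notes name mm9, TopHat2 2.0.8, SAMtools and featureCounts 1.4.5-p1. No reference of that build was used here. The values of all 15451 genes above 0 were whole multiples of 1 read (tolerance 1e-06 reads), which gave reads, gene lengths and library totals.

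Scaling used each library's median ratio to the per-gene geometric mean. The 9745 genes that reached an RPKM of 1 in 3 or more libraries were compared as log2(RPKM + 0.1) with limma 3.58.1 (R 4.3.3), fitted once to the 12 libraries, with two-sided p-values adjusted by Benjamini-Hochberg in each of 5 comparisons and called under 0.05. Fold changes on this scale understate those of low genes. Intervals are 2 SE. Counts of reads, adjusted with limma voom, served as an alternative.

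The members and all gene lists were chosen with earlier results of these data known. Named beside the 10 genes were 8 sensors and factors, up to 2 genes that rose and 2 that fell with the smallest adjusted p in each list and comparison, and the 3 genes most like Hspa5, Herpud1 and Xbp1. Some genes of the lists are counted but not reported here by name. Reads of replicates differed by more than sampling noise in all 12 pairs over genes under 0.3 reads per base (chi-square per gene of 1.05 to 2.66). IACS replicates 1 and 2 were the closest (1.05, or 1.02 over all genes, where this pair could not be told from sampling noise) and were also averaged into 1. On simulated data of 9745 genes for IACS against untreated, 98.0% of 200 genes with a log2 change of 1 were called, 79.5% of 200 with 0.5 and 22.5% of 200 with 0.25.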

Additional observations from a re-analysis of the deposited data

Results flagged for a closer look

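The response of Ddit3 to OHT went in opposite directions without and with IACS-010759. In all 3 OHT libraries Ddit3 was above the untreated range (7.97 to 10.2 against 7.24 to 7.58 RPKM), and in all 3 OHT_IACS libraries it was below the IACS range (14.6 to 15.6 against 16.8 to 17.7 RPKM). The log2 difference was 0.22 in the first comparison (limma adjusted p = 0.0189) and -0.18 in the second (adjusted p = 0.0571), and their difference, -0.406, was not called (interaction, limma adjusted p = 0.127, and 0.0447 to 0.316 over the alternative settings). The first difference was not called with limma voom (0.24, adjusted p = 0.103). The comparisons share no library.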

How the results depend on the processing

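In 512 refits of values of the 10 genes under other settings, those chosen after seeing the data left aside, 448 kept their direction and side of the threshold, 27 lost the call, 26 gained it and 11 changed direction. Herpud1 and Sdf2l1 kept both responses to IACS-010759 in all of them. These losses and gains are given with each gene, except those with the replicate block, which are given below. In sentences below without another tool, counts are of limma calls.

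Log2 differences that changed direction were all small. Calr with OHT (0.16) became -0.030 with quantile normalization, -0.067 with the library total as a covariate, -0.024 with cyclic loess and -0.066 with OHT replicate 2 as the one OHT library. Calr with IACS (0.03) became -0.057, -0.096 and -0.054 under the first 3 of these, and ran from -0.037 to 0.079 with each library left out. Calr in primed cells became 0.10 with OHT replicate 2 alone. Hsp90b1 with IACS (-0.02) was 0.011 as deposited, 0.019 with IACS replicates 1 and 2 averaged, and -0.087 to 0.021 with each library left out. Sdf2l1 with OHT (0.10) became -0.012 with the covariate and -0.018 with OHT replicate 2 alone. Edem1 in primed cells (0.06) became -0.0052 with OHT replicate 2 alone and ran from -0.00070 to 0.092 with each library left out. Mbtps1 in primed cells (0.02) became -0.014 with OHT replicate 2 alone. Mbtps2 in primed cells (0.07) became -0.010 with quantile normalization and -1.5e-05 with cyclic loess, and with IACS (0.04) ran from -0.022 to 0.094 with each library left out.

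For OHT, members called (4) became 1 with the covariate, 2 with only the compared groups, 1 with OHT replicate 2 alone, and 1 (without untreated replicate 2) to 7 (without OHT replicate 2) with each library left out. For IACS, 3 became 7 with the covariate. For OHT_IACS against OHT, 4 became 7 with quantile normalization, cyclic loess or the covariate, and 3 to 7 with each library left out, the highest without OHT replicate 2. For OHT_IACS against IACS, 2 became 5 with quantile normalization, 4 with cyclic loess or the covariate, 1 with IACS replicates 1 and 2 averaged, and 1 to 2 with each library left out.

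Other ER stress pathway genes called with OHT (25) became 14 with OHT replicate 2 alone and 16 (without OHT replicate 3) to 42 (without OHT replicate 2). In primed cells 30 became 19 with only the compared groups, 16 with OHT replicate 2 alone and 21 to 49 (without OHT replicate 2). For OHT_IACS against IACS 21 became 12 with the averaged replicates and 11 (without IACS replicate 1) to 20. For the interaction 0 (limma, and 0 with limma voom, while 2 of 12 genes of the PERK and ATF4 arm and 7 of the other 95 had an unadjusted p under 0.05) became 2 with OHT replicate 2 alone and 0 to 2 with each library left out.

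Of all genes, 3546 called with OHT became 2351 with the covariate and 1870 with OHT replicate 2 alone. With IACS 1548 became 947 (without untreated replicate 1) to 1234. In primed cells 2310 became 713 with OHT replicate 2 alone and 1522 (without OHT_IACS replicate 3) to 2993. For the interaction 14 became 7 without a filter, 5 as deposited, 34 with quantile normalization, 32 with cyclic loess, 7 with the replicate block, 5 with the covariate, 25 with limma voom, 6 with the averaged replicates and 3 to 149 (without OHT replicate 2). The interaction could not be fitted with only the compared groups.

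Deviations of same-numbered libraries had r from -0.172 to 0.104 (median -0.035, over 18 pairs). Those of libraries with different numbers had r from -0.182 to 0.168 (median 0.0055, over 36 pairs). Whether samples of the same number were grown or processed together was not tested. With the replicate block, 5, 3, 6 and 2 members were called for OHT, IACS, OHT_IACS against OHT and OHT_IACS against IACS. The block added Hspa5 with OHT (limma adjusted p = 0.0396) and Hspa5 and Hsp90b1 in primed cells (adjusted p = 0.0416 and 0.0406). Cyclic loess, OHT replicate 2 alone and the averaged replicates were chosen after seeing the data. Reads of Dnajb9 (110 to 147) limit what could be called for it, and the leveling of reads limits Hspa5, Calr and Hsp90b1.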
